A study of Mus musculus with 2 samples.

Results

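The cells described here were prostate luminal cells that carried a high level of alpha-defensin RNA in mice with a human androgen receptor transgene. They were selected on measured values, namely the deposited natural log values of 7 genes. Cells whose barcode ended in 2 passed the gate when they held RNA of Epcam and Krt8, genes of epithelial and luminal cells, no RNA of the leukocyte gene Ptprc and a value below 1 for Krt5, a basal keratin. Of the 9410 cells with this ending, 7701 passed. The mean natural log value of Defa20, Defa21 and Defa22 then gave each cell a score, and the 1540 cells with the highest scores, the upper 20% of the gated cells, are called defensin-high cells. They made up 16.4% of the cells with ending 2 and belonged to a series of 15742 cells in all. The other 6161 gated cells with ending 2 served as the comparison.

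The mice carried the R26mTmG/hAR:Osr1Cre/+ alleles on a mixed C57BL/6 and 129S1/SvImJ background. In these animals Cre recombinase made from the Osr1 locus switches on hARtg, the human androgen receptor transgene, together with a green fluorescent protein at the membrane (mGFP) that labels the progeny of Osr1-expressing cells. The labels list 1 sample with precancerous intraepithelial lesions (PIN) and 1 with carcinoma (PCa), the latter from older mice, and both groups carried hARtg. The labels and column names do not say which barcode ending belongs to which tissue, so no cell was assigned to PIN or PCa and each ending is treated as 1 library. All comparisons below lie within or between single libraries, have no replicate check and carry no p-value. Intervals are exact 95% intervals that cover counting error only, since cells of 1 library are not replicates.

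Alpha-defensins are small, positively charged peptides that kill bacteria by disrupting their membranes. In the mouse intestine they are known as products of Paneth cells, secretory cells at the base of the crypts, where the protease matrilysin (Mmp7) cuts the precursors into active peptides. Their genes lie side by side on chromosome 8, and in Paneth cells their transcription is known to depend on TCF/LEF factors, the DNA-binding partners of beta-catenin in Wnt signaling. Luminal cells of the prostate are known for another product, the secretory proteins of the seminal fluid, many of which depend on androgen.

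The table held 21 alpha-defensin features, all in a cluster between positions 21025545 and 21735471 of chromosome 8 (RefSeq, GRCm38.p6, the mm10 assembly). RefSeq gave a promoter window for 11 of them. The upstream sequences below are 250 bases that end just before the annotated start. Those of Defa20 and Defa22 are shown because the 3 genes of the score share them almost letter for letter. Those of Gm15308, Defa23 and Gm14851 are shown for comparison. Capitals mark ATCAAAG, a site that TCF/LEF factors bind, and the TATAAA box near the start.
Defa20, chr8:21509008-21509257, plus strand: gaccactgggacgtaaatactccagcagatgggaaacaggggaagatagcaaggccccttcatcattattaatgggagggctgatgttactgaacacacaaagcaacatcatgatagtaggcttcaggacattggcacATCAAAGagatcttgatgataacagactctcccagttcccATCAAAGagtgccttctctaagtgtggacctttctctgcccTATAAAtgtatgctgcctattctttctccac
Defa22, chr8:21162027-21162276, plus strand: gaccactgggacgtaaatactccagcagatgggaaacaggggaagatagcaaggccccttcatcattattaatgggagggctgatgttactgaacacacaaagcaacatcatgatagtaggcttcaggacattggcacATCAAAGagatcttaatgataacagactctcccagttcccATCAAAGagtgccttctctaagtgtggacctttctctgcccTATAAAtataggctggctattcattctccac
Gm15308 (Defa32), chr8:21528780-21529029, plus strand: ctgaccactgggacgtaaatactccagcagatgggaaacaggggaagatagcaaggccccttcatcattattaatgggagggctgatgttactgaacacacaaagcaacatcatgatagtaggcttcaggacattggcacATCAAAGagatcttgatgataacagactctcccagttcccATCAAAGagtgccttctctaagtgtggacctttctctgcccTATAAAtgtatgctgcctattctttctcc
Defa23, chr8:21054790-21055039, plus strand: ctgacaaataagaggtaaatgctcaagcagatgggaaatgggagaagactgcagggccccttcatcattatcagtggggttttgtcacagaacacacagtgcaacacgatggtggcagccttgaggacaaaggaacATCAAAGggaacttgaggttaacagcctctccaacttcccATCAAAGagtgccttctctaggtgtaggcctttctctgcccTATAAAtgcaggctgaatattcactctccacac
Gm14851 (Defa38), chr8:21096051-21096300, minus strand: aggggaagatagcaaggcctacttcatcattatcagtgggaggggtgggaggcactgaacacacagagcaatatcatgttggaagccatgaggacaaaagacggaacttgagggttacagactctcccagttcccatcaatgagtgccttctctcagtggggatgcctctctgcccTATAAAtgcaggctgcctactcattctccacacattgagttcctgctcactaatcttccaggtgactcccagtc

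The upstream window of Defa21, at chr8:21025295-21025544, was identical to that of Defa22 at all 250 positions, and the window of Defa20 matched Defa22 at 245 of 250 positions. In these 3 genes and in Gm15308 the ATCAAAG sites stood 40 bases apart. The first site lay 81 bases before the TATAAA box in every alpha-defensin window that held both motifs. On either strand, ATCAAAG occurred at least once in 10 of the 11 windows and at 2 positions in 7 of them. Among all 32851 promoter windows of the same length, 3.21% held the motif and 0.0822% held it at 2 or more positions. The 11 windows belong to related gene copies and are not independent of one another. The full androgen response element, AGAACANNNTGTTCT, is rare, at 0.00913% of all windows, and occurred in 0 of the 11. The single site AGAACA within it, searched on either strand, occurred in 5 of the 11 and in 16.1% of all windows. The number of sites did not order the measured levels. Defa23 held 2 sites and had 0.462 CPM in the defensin-high cells, whereas Gm15284 (Defa30) held 1 site and had 232 CPM. The level of Defa23 is uncertain, because 89.4% of the stretches of 90 bases in its transcript also occurred in another alpha-defensin transcript. Here CPM is the sum of a gene's UMIs over a group of cells per 1000000 UMIs of that group. UMIs (unique molecular identifiers) tag single captured RNA molecules at their 3′ end, so levels were not divided by transcript length. A match to a motif is a description of the letters, not a binding site shown by these data.

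The alpha-defensin genes are close copies, which limits how far their reads can be told apart. The coding sequences of Defa21 and Defa22 (GENCODE M1 transcripts, 282 bases from start to stop codon) are shown because these genes differed at only 2 positions, T114G and T204A, counted from 1 at the start codon with the Defa21 base first. Capitals mark those bases.
Defa21: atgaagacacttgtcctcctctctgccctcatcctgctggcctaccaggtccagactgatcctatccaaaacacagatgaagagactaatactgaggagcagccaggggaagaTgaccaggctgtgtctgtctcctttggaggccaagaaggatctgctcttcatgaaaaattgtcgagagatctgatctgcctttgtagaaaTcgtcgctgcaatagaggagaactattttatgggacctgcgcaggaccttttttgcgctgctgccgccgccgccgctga
Defa22: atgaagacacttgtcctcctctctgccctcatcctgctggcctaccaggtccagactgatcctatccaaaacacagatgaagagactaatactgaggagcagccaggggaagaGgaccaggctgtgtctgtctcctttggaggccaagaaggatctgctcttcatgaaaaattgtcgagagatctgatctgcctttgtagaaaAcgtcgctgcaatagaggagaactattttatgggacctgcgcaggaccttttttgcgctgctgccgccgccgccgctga

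Over the whole transcript Defa21 and Defa22 were 99.3% identical, and Defa20 was 99.8% identical to Gm15308. Of the 336 stretches of 90 bases in the Defa20 transcript, 75.3% occurred without change in another alpha-defensin transcript. The share was 45.3% for Defa21, 92% for Defa5, 18.2% for Gm15293 and 4.53% for Gm15284. Defa24 shared 0 of its 330 stretches. Reads from a shared stretch cannot be placed on a single gene, so the level of each copy and the independence of the copies from the score genes are uncertain, least so for Defa24 and Gm15284.

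The score had no gap at its limit. It ran from 0 to 5.08 among the gated cells with ending 2, and 16.3% of them had a score of 0. The lowest score of a defensin-high cell was 1.2405, and the highest score outside was 1.2404. The cell just inside held 12 UMIs of Defa20, 17 of Defa21 and 21 of Defa22, and the cell just outside held 18, 7 and 10. Within 0.1 of the limit lay 208 defensin-high cells and 211 other cells. The defensin-high cells are the upper range of this score, and whether they form a cluster of their own was not tested.

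**Figure D1:**
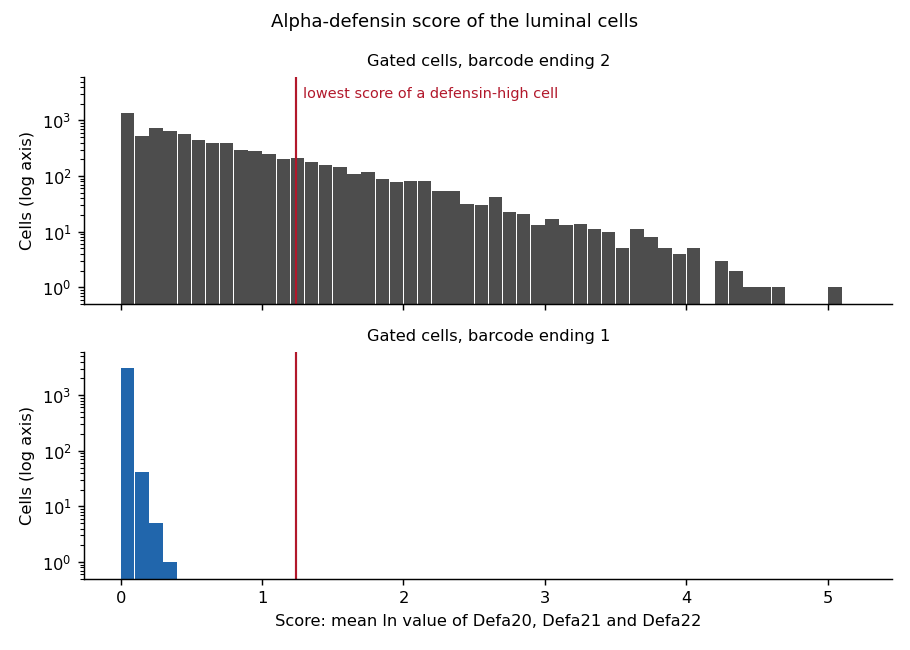
Number of gated cells (log axis) in bins of 0.1 of the alpha-defensin score, for barcode ending 2 (upper panel) and ending 1 (lower panel), with the lowest score of a defensin-high cell, 1.24, as a line. The scores with ending 2 fall off without a gap at the line, and the scores with ending 1 stop at 0.329.

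The defensin-high cells were sequenced somewhat more deeply than the rest. Their median was 20533.5 UMIs and 3919 genes per cell, against 16608 UMIs and 3573 genes in the remaining gated cells. Median mitochondrial shares were 5.42% and 5.19%. The gated cells were also divided by score into 5 groups of equal size, or quintiles. The cells in the lowest quintile had a median of 12161 UMIs, so low scores and shallow cells went together. For this reason ratios are also given within tertiles of the gated cells by UMIs per cell, 3 groups of equal size. Of 67 barcodes that occurred with both endings, 16 belonged to defensin-high cells and 36 to remaining cells.

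The genes of the score are described first, without a test. Defa20 had 1194 CPM in the defensin-high cells and 184 CPM in the remaining cells. Defa21 had 637 and 47.3 CPM, and Defa22 had 748 and 52.9 CPM. The median defensin-high cell held 21 UMIs of Defa20, 8 of Defa21 and 9 of Defa22, and the highest counts in a cell were 247, 398 and 316. All 3 genes were seen together in 1450 of the 1540 cells, or 94.2%, and in 21.1% of the remaining cells. Defa21 and Defa22 were spread less evenly over the defensin-high cells than Defa20, since the tenth of the cells with the most UMIs held 50% of the Defa21 UMIs, 47.5% of those of Defa22 and 33.1% of those of Defa20.

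After every cell was thinned to 3000 UMIs, a UMI of any of the 3 genes was found in 98.1% of the defensin-high cells (95% interval 97.3 to 98.7%; 7 cells were too shallow) and in 44.9% of the remaining cells (43.7 to 46.2%; 65 too shallow). Without thinning the shares were 100% and 79.7%. Free RNA in droplets can give such UMIs to cells that do not make the RNA. As a measure of it, 87 cells with ending 2 that held collagen RNA (Col1a2 or Col3a1) but no Epcam, Krt8 or Ptprc were used. Their median depth was 4805 UMIs, and 11% of those deep enough held a score-gene UMI after thinning (4.85 to 20.5%; 17.2% without thinning). The summed level of the 3 genes was 48 CPM in these cells, 284 CPM in the remaining gated cells and 2578 CPM in the defensin-high cells. The remaining gated cells were above this measure as a group, and a single cell with few such UMIs cannot be told from it. Krt8 had 8143 CPM in the remaining gated cells and would be common in free RNA. Taking only cells without Krt8 or Epcam RNA favours those with little free RNA, so the measure may be too low. How far free RNA reached the gated cells was not tested. Outside the gate, 268 cells of ending 2 held Epcam and Krt8 and had a Krt5 value of 1 or more. A score-gene UMI was found in 31.5% of the 260 deep enough for thinning (25.9 to 37.6%), and their summed level was 960 CPM.

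The same gate applied to barcode ending 1 gave 3121 cells with a median of 27211 UMIs, and none of them reached the score limit. Their highest score was 0.329. A UMI of any of the 3 genes occurred in 2.95% of them, and in 0.421% (0.224 to 0.718%) after thinning to 3000 UMIs. The summed level of the 3 genes was 1.23 CPM there, and that of the other alpha-defensin features 3.24 CPM against 5315 CPM in the defensin-high cells. In the 267 leukocytes of ending 1 deep enough for thinning, 0 held such a UMI, with an upper limit of 1.37%. The ending with alpha-defensin RNA was also the one with more hARtg RNA, at 1466 to 1510 CPM in the gated cells of ending 2 against 170 CPM in those of ending 1. Tissue, animal, age and library all differ or may differ between the endings and cannot be told apart.

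Among the alpha-defensin features that were not part of the score, 10 had at least 20 CPM in either group, and all 10 were at least 1.5-fold higher in the defensin-high cells. This held for 9 of 10 without the lowest quintile of cells by score, since Defa24 fell short. Over all 5134 genes with at least 20 CPM in either group, rule genes left out, 83 were at least 1.5-fold higher, which is 1.62%, and 139 were at least 1.5-fold lower, which is 2.71%. These counts use the log2 ratio after 10 CPM were added to each level. The median log2 ratio over all genes was -0.04. The cells were chosen by close copies of these features. Defa3 also passed the filter only through the defensin-high cells, with 38.8 against 14.9 CPM. The count of higher alpha-defensin features is therefore not independent of the choice.

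Gm15308 (Defa32) had the highest level of the alpha-defensins, 1384 CPM in the defensin-high cells against 224 CPM, a ratio of 6.16 (6.08 to 6.25). Gm10104 (Defa35) had 1013 against 178 CPM, Gm21002 (Defa33) 782 against 121 CPM, Gm15315 (Defa34) 693 against 241 CPM, and Gm15293 (Defa41) 599 against 90.3 CPM, a ratio of 6.63 (6.49 to 6.78). Defa5 had 281 against 47 CPM. Gm15284, which shared few stretches with other copies, was 3.03-fold higher (2.95 to 3.12), at 232 against 76.7 CPM. Defa24, which shared no stretch, had the smallest difference of the 10, 119 against 71 CPM, or 1.68-fold (1.62 to 1.74). Its log2 ratio was 0.67, and it fell short of 1.5-fold without the lowest quintile (0.54) and among cells with 5 or more hARtg UMIs (0.58). The other 8 features stayed between 0.0514 and 5.7 CPM in the defensin-high cells, among them Defa17, Defa23 and Defa26. Most stretches of 90 bases in Defa17 (90.9%) and Defa23 (89.4%) also occurred in another copy, so their low levels are uncertain. Within tertiles by depth the log2 ratio of Gm15308 was 2.88, 2.91 and 2.37, and that of Defa24 was 1.0, 0.88 and 0.54, the last short of 1.5-fold.

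**Figure D2:**
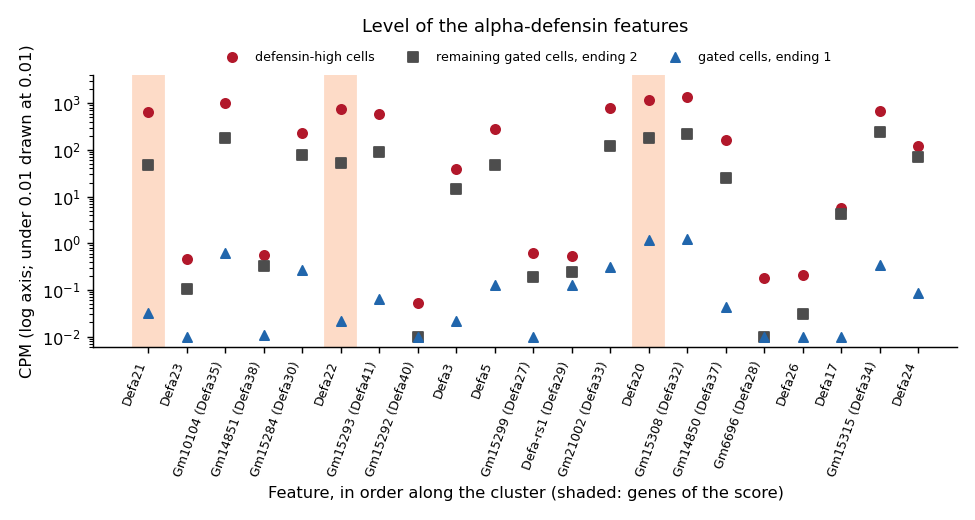
Level of the 21 alpha-defensin features in CPM (log axis), in order along the cluster, in defensin-high cells (circles), remaining gated cells with ending 2 (squares) and gated cells with ending 1 (triangles); shading marks the genes of the score, and levels under 0.01 CPM are drawn at 0.01. Circles lie above squares throughout, and triangles lie at or below 1.22 CPM.

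The cells had also been labelled by Kcnmb2 and Gja1, which were not part of the score. Kcnmb2, a regulatory subunit of calcium-activated potassium channels, had 76.9 CPM in the defensin-high cells and 36.5 CPM in the remaining cells, a ratio of 2.11 (2.01 to 2.21). Its log2 ratio was 0.65, 1.11 and 0.87 within tertiles by depth. After thinning, 19% of the defensin-high cells and 8.96% of the remaining cells held a Kcnmb2 UMI. Kcnma1, the pore-forming partner of such subunits, had 0.899 against 4.15 CPM. Gja1, which encodes the gap junction protein connexin 43, had 160 against 119 CPM, a ratio of 1.34 (1.3 to 1.38), and did not reach 1.5-fold. With ending 1, Kcnmb2 had 0.0744 CPM and Gja1 2.13 CPM. A list of 12 luminal genes was also compared. Both groups had passed the same gate, so similar levels do not test the luminal label. Krt18, the keratin partner of Krt8, had 7584 against 7468 CPM, and the median log2 ratio of the 10 list genes with at least 20 CPM was 0.00. Hoxb13, a homeobox factor of the prostate, was the 1 gene of this list past 1.5-fold, with 17.7 against 41.4 CPM. Without the lowest quintile of cells the log2 ratio of Hoxb13 was -0.58, just short of 1.5-fold. Foxa1, another gene of the list, was just short of 1.5-fold with all cells, at -0.56.

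The genes highest in the defensin-high cells after the alpha-defensins were genes known from cornified epithelia such as skin, together with several of other kinds. Tgm3, a transglutaminase that cross-links proteins of the cornified envelope, had 65.5 against 4.5 CPM, a ratio of 14.5 (13.3 to 15.9). S100a8, a calcium-binding antimicrobial protein of neutrophils and stressed epithelium, had 60.1 against 4.91 CPM, a ratio of 12.2 (11.2 to 13.4). Its usual partner S100a9 had 0.591 against 0.37 CPM, and the leukocyte genes Tyrobp and Fcer1g had 0.565 and 0.95 CPM. These genes were near 0 in cells already gated for no Ptprc RNA, and the source of the S100a8 RNA was not tested. Prr9, a proline-rich gene of the cornified cell, had 737 against 234 CPM. S100a14 had 319 against 118 CPM, and Lor, which encodes the cornified envelope protein loricrin, 86.3 against 34.5 CPM.

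Several of these genes lie together in the epidermal differentiation complex and its S100 neighbours on chromosome 3, between positions 90511034 and 93564645 (RefSeq, GRCm38.p6). The table held 41 genes of this stretch, a list formed after the values were seen. Of the 13 with at least 20 CPM, 9 were at least 1.5-fold higher (S100a1, S100a6, S100a8, S100a11, S100a14, S100a16, Lor, Prr9 and Lce6a), 1 was lower (Sprr1a, 300.0 against 546 CPM) and 3 lay between. Without the lowest quintile of cells by score Sprr1a fell short of 1.5-fold, at a log2 ratio of -0.46. The list's median log2 ratio was 0.89, and 0.83 without the lowest quintile of cells. S100a6 had the highest level, 3821 against 2025 CPM. S100a11 had 158 CPM in the defensin-high cells but 176 CPM in the lowest quintile by score. S100a8 and Lce6a passed the filter only through the defensin-high cells. Other genes of cornification were near 0, such as Ivl (involucrin) with 3.67 CPM, Krt10 with 8.52 CPM and Krt1 with 0.0514 CPM. Part of the complex was therefore higher. The epidermal keratins Krt10 and Krt1 had low levels in the defensin-high cells, and no ratio is given for them.

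The remaining genes among the 15 highest were Fam25c, with 143 against 30.1 CPM, Tesc, a calcium-binding protein gene, with 108 against 22 CPM, and Cryba4, a crystallin gene, with 99.6 against 21.3 CPM. Golga7b, named here because its values were seen, had 26.4 against 4.26 CPM. In gated cells of ending 1, Cryba4 had 0.319 CPM and Tesc 2.5 CPM, but Prr9 had 1587 CPM and S100a14 350.1 CPM. Of the other higher genes of the complex, S100a6 had 1985, S100a11 1030, S100a16 430 and S100a1 114 CPM there. Lor had 8.73, Lce6a 6.08 and S100a8 0.361 CPM. Prr9, S100a14, S100a6, S100a11, S100a16 and S100a1 were thus not limited to cells with alpha-defensin RNA. Of the 83 genes at least 1.5-fold higher, 10 were alpha-defensins, 9 lay in the epidermal differentiation complex and 64 belonged to neither. Over the quartiles of the defensin-high cells by score, 53 of the 83 rose at every step. All 83 were higher in the top than in the lowest quartile, some by almost nothing. Cxcl14, a chemokine gene named here after its values were seen, had 63.63 and 63.62 CPM. The 83 genes had been chosen as higher in cells with a high score. The share of all genes that rose in the same way is not given, so these counts are a description only.

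Expression of these genes was patchy among the defensin-high cells. Cryba4 UMIs were found in 51.2% of them, against 19.7% of the remaining cells, Tgm3 UMIs in 26.6% against 5.05% and S100a8 UMIs in 27.5% against 5.55%. After thinning to 3000 UMIs, Tgm3 was found in 9.13% (7.74 to 10.7%) and 1% (0.766 to 1.28%), and in 0 of 73 collagen-positive cells, with an upper limit of 4.93%. The tenth of the defensin-high cells with the most UMIs held 85.5% of the Tgm3 UMIs and 82.8% of those of S100a8, against 30.8% of those of the alpha-defensins outside the score. After thinning of 1498 defensin-high cells to 6000 UMIs, 67.1% of the 228 cells with Tgm3 also held Prr9 (60.6 to 73.2%), against 32.2% of the 1270 cells without it (29.6 to 34.9%). S100a8 was found in 23.2% (17.9 to 29.3%) and 10.8% (9.13 to 12.6%) of these cells, and Golga7b in 29.4% (23.6 to 35.8%) and 7.17% (5.81 to 8.72%).

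Levels also rose within the defensin-high cells. From the lowest to the highest quartile by score, Tgm3 ran through 15.7, 27.1, 53.6 and 179 CPM, and S100a8 through 20.2, 31.7, 47.1 and 152 CPM. Prr9 stayed between 566 and 591 CPM in the lower 3 quartiles and had 1279 CPM in the highest. Gm15308 ran from 701 to 2532 CPM, while Defa24 had 97.1, 94.9, 108 and 184 CPM. The quartiles had medians of 21012, 21219, 22001 and 18679 UMIs per cell, so the highest quartile was not the deepest.

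**Figure D3:**
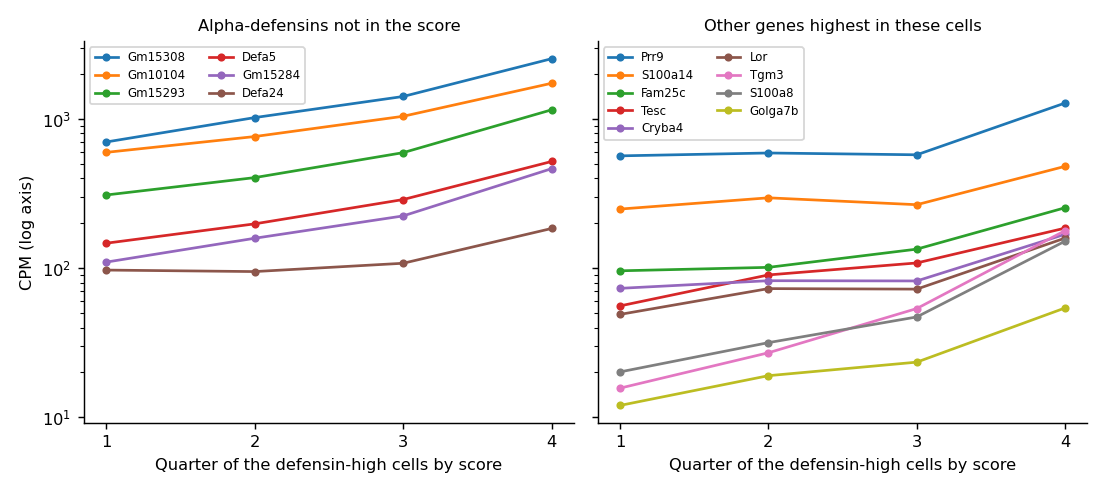
CPM (log axis) in quartiles of the defensin-high cells by score, for alpha-defensins outside the score (left) and other genes highest in these cells (right). Tgm3 goes from 15.7 to 179 CPM and Defa24 from 97.1 to 184 CPM.

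Given the TCF/LEF sites, the Wnt pathway was examined with a list of 19 target genes. Of the 15 with at least 20 CPM, 3 were at least 1.5-fold higher in the defensin-high cells, 1 was lower and 11 lay between. Over all 5134 genes kept, 1.62% were higher and 2.71% lower. The median log2 ratio of the list was -0.07. The higher genes were Ccnd1, which encodes cyclin D1, with 411 against 210 CPM, Bambi, a pseudoreceptor that dampens TGF-beta signaling, with 225 against 114 CPM, and Wif1, a secreted Wnt inhibitor, with 491 against 318 CPM. Sp5, a transcription factor, was lower, at 9.81 against 23.8 CPM. Axin2, the feedback inhibitor most often used as a readout of the pathway, had 158 against 182 CPM, Lgr5, an R-spondin receptor, 25.9 against 27.8 CPM, and Nkd1, a negative regulator, 226 against 248 CPM. The genes of the list thus did not move one way. Without the lowest quintile of cells Wif1 fell short of 1.5-fold, at a log2 ratio of 0.48, whereas Ccnd1 (0.83) and Bambi (0.81) did not. Nkd2, outside the list and named after its values were seen, had 27.9 against 11.5 CPM. It passed the filter only through the defensin-high cells. In the gated cells of ending 1, Axin2 had 21.3 CPM, Wif1 1.43 CPM and Ccnd1 57.3 CPM.

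The transgenes did not separate the groups. The feature ARQ, taken here as hARtg, had 1510 CPM in the defensin-high cells and 1466 CPM in the remaining cells, a ratio of 1.03 (1.02 to 1.04). EGFP, taken as mGFP, had 10003 against 9855 CPM. At least 5 hARtg UMIs were found in 95.1% of the defensin-high cells, in 87.5% of the remaining cells and in 69.6% of the lowest quintile by score. Androgen receptor targets, 8 of 14 listed with at least 20 CPM, had a median log2 ratio of -0.30. Fkbp5, a chaperone gene induced by androgen, had 48.1 against 53.4 CPM, and Pmepa1 was the 1 target past 1.5-fold, with 7.19 against 49.8 CPM. When cells with fewer than 5 hARtg UMIs were left out, the log2 ratio of Gm15308 was 2.48 and that of Tgm3 2.35.

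Apart from the defensins, the genes of Paneth cells were low or not higher. Lyz1, the lysozyme of Paneth cells, had 0 UMIs in the defensin-high cells, and Ang4, an antimicrobial ribonuclease, 1.39 CPM. Of the 19 genes of the Paneth list in the table, 4 had at least 20 CPM, of which 1 was lower (Nupr1, 109 against 230 CPM) and 3 lay between. Nupr1 too fell short of 1.5-fold without the lowest quintile, at a log2 ratio of -0.40. Mmp7, the matrilysin gene, had 1051 against 1310 CPM, and Sox9, a factor needed for Paneth cells, 134 against 185 CPM. Atoh1 and Gfi1, factors of the secretory lineage of the gut, had 0.128 and 0.0257 CPM. Of the markers of other intestinal cells, 0 of 10 in the table reached 20 CPM. Mmp7 was thus present but was not higher where the defensins were.

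Other antimicrobial genes of epithelia did not follow the alpha-defensins. Of the 6 with at least 20 CPM, 1 was higher (S100a8) and 4 were lower (Lcn2, Wfdc2, Pigr and Defb50). Without the lowest quintile Pigr, an immunoglobulin transporter gene, was under 20 CPM on both sides and 3 of 5 were lower. Defb50, a beta-defensin gene on chromosome 8 near the alpha-defensin cluster, had 746 against 2345 CPM, or 3.14-fold lower (3.11 to 3.18), and its log2 ratio without the lowest quintile of cells was -1.55. Its level in the gated cells of ending 1 was 11085 CPM. Defb1, a widely expressed beta-defensin gene, had 2470 against 2881 CPM.

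Prostate secretory genes were lower in the defensin-high cells. All 9 of the listed genes with at least 20 CPM were at least 1.5-fold lower, with a median log2 ratio of -1.65. Sbp, which encodes spermine-binding protein, had 299.9 against 3165 CPM, Pbsn, or probasin, 32.6 against 444 CPM, and Tgm4, a prostate transglutaminase, 314 against 1004 CPM. Msmb had 3.41 against 95.1 CPM, or 27.9-fold lower by CPM alone, and Spink1, a trypsin inhibitor, 33.9 against 485 CPM. Much of this difference lay in the lowest quintile by score. Over the quintiles from lowest to highest, Sbp ran through 10698, 2885, 1356, 395 and 299.9 CPM, and Tgm4 through 3221, 888, 358, 322 and 314 CPM. Without the lowest quintile, all 9 genes were still at least 1.5-fold lower and the median log2 ratio was -1.17, and over all 5062 genes then kept 76 were higher, which is 1.5%, and 89 were lower, which is 1.76%. The cells of the lowest quintile also had fewer UMIs and less hARtg RNA. Within depth tertiles the log2 ratio of Sbp was -3.32, -3.48 and -3.38 and the median of the list lay between -2.32 and -1.55. Among cells with 5 or more hARtg UMIs the median was -1.20, with Sbp at -3.30, Spink1 at -3.47 and Pbsn at -1.93.

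**Figure D4:**
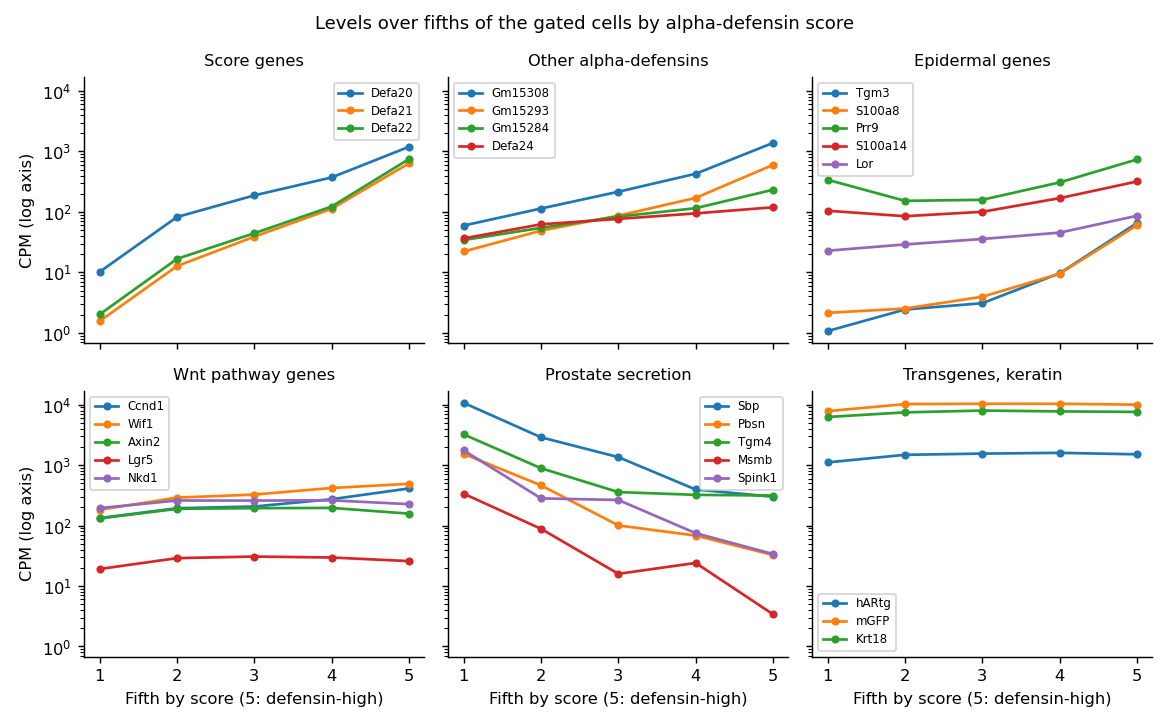
CPM (log axis) of named genes in quintiles of the gated cells with ending 2 by score, from the lowest (1) to the defensin-high cells (5). Alpha-defensins, Tgm3 and S100a8 go up step by step, Sbp goes from 10698 to 299.9 CPM, and hARtg (1110 to 1510 CPM) and mGFP change little.

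The 15 genes with the lowest ratios held further products of secretory cells. On the scale with 10 CPM added, the lowest ratio was that of 9530053A07Rik, with 181 against 2379 CPM, or a log2 ratio of -3.64, and -2.33 without the lowest quintile. Ren1, or renin, had 17.9 against 222 CPM, and Agr2, a protein disulfide isomerase of mucous cells, 14.4 against 154 CPM. Psca, a marker of proximal and urethral luminal cells, had 45.1 against 171 CPM. Krt4, another gene of that list, was higher, with 21.9 against 10.7 CPM. Mt4 and Gulo, a metallothionein gene and a gene of ascorbate synthesis, were lower and not through the lowest quintile alone. Gulo ran through 141, 195, 149, 114 and 46.9 CPM over the quintiles, and its log2 ratio without the lowest quintile was -1.49. Genes of secretion and the unfolded protein response had a median log2 ratio of -0.38, with 1 of 14 past 1.5-fold (Pdia6, 215 against 366 CPM) and 0 of 14 without the lowest quintile.

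Markers of other cell types were at or near 0 or were not higher as a list, apart from the single genes Cd52 and Dcn. The 8 basal genes summed to 44.6 CPM in the defensin-high cells and to 147 CPM in the remaining cells, of which the lowest quintile held most, at 520 CPM. The 4 basal genes with at least 20 CPM (Krt14, Krt15, Krt17 and Dst) reached it only in the remaining cells. All 4 were lower, a direction that the filter favoured, and without the lowest quintile none of them reached 20 CPM. Krt14 had 6.7 CPM and Krt15 9.01 CPM. The 6 endothelial genes summed to 7.5 and 39.1 CPM and the 6 smooth muscle genes to 5.91 and 7.04 CPM. The 7 neuroendocrine genes in the table summed to 14.4 and 19.7 CPM, of which Ddc alone gave 13.8 and 18.3 CPM. The 12 leukocyte genes summed to 917 and 725 CPM, but Cd52 alone gave 895 and 660 CPM, and Cd8a had 0 UMIs. The 6 fibroblast genes summed to 297 and 238 CPM, of which Dcn gave 288 and 221 CPM, while Col1a1 had 2.82 and Col3a1 1.93 CPM.

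Proliferation and immediate early genes did not pass 1.5-fold, whereas a few signaling genes did. Of 5 proliferation genes with at least 20 CPM, 0 passed 1.5-fold, and the median log2 ratio was 0.09. Cells with UMIs of both Mki67 and Top2a made up 6.82% of the defensin-high cells and 5.74% of the gated cells. Of 10 immediate early genes, a sign of stress during dissociation, 0 passed 1.5-fold. In the IGF1 signaling list, Igf1r had 93.5 against 89.1 CPM, and Igfbp3 and Igfbp7 were lower, at 3.54 against 24.5 CPM and 25 against 99.1 CPM. Both fell short of 1.5-fold, at log2 ratios of -0.05 and -0.55, once the deepest 5% of gated cells and cells with UMIs of stromal, endothelial or T cell genes were left out. Among Notch genes, Notch1 was lower, with 13.7 against 30.4 CPM, whereas Notch2 had 24.6 against 14.8 CPM, short of 1.5-fold on the scale used. Seminal vesicle genes had a median log2 ratio of -0.40, with 3 of 8 lower (Svs2, Svs5 and Pate4). Pate4 is also counted in the list of prostate secretory genes. Svs5 fell short of 1.5-fold without the lowest quintile (-0.49), and within the deepest tertile Svs5 (-0.56) and Pate4 (-0.50) did. With the upper 10% of cells as members, Svs2 (-0.55) and Svs5 (-0.21) fell short. The list's median ran from -1.80 to -0.16 over the alternatives.

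**Figure D5:**
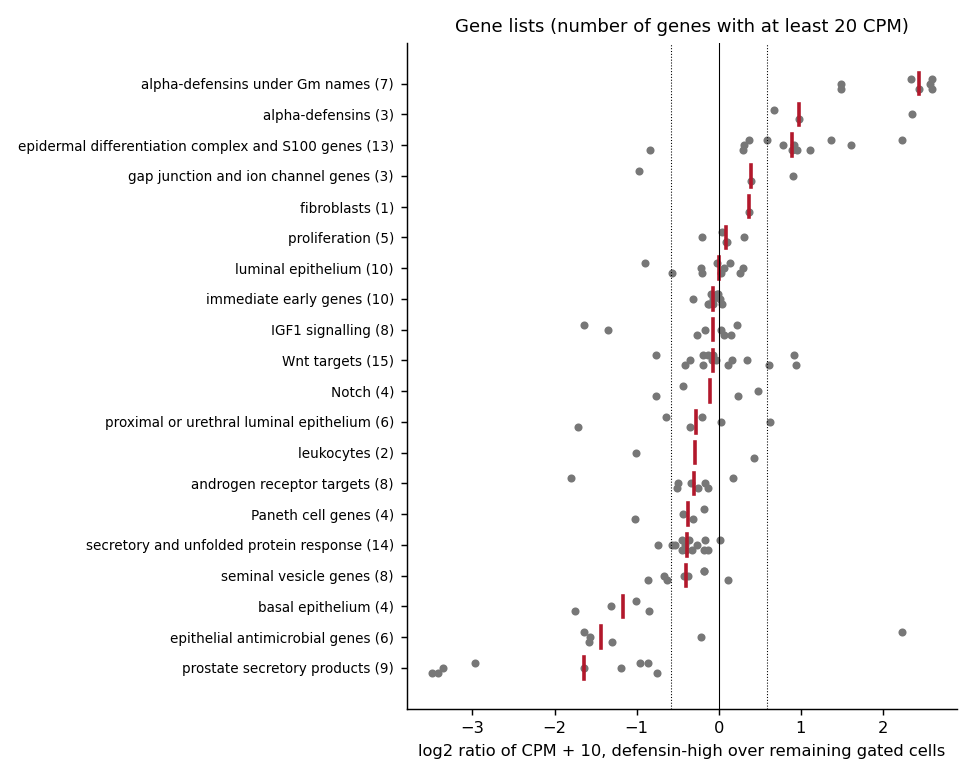
log2 ratio of CPM + 10, defensin-high over remaining gated cells, for the genes of each list with at least 20 CPM in either group (points) with the list's median (bar); dotted lines mark 1.5-fold in each direction. Alpha-defensins lie to the right and prostate secretory products to the left, with Wnt targets around 0.

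The defensin-high cells overlapped other score classes of the same gated cells to different degrees. They shared 432 cells with the upper 20% by Svs2, Svs4 and Svs5, which is 28.1% of each class. With the upper 20% by Mt4 and Gulo they shared 106 cells, or 6.88% of each, and with the upper 20% by Tgm4 331 cells, or 21.5% of each. Each of these classes, like the defensin-high cells, made up 20% of the gated cells. The Tgm4 overlap was near that share, although the summed Tgm4 level was lower in the defensin-high cells, at 314 against 1004 CPM. Summed levels do not show how many cells held the difference. Deeper cells hold UMIs of more genes, and the part of depth in these overlaps was not tested.

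Correlations of the score genes across cells are given as a description. Spearman's rho of Defa21 with Defa22 was 0.59 over the 7701 gated cells and 0.37 over the 1540 defensin-high cells, and that of Defa21 with Defa20 was 0.56 and 0.21. The defensin-high cells were selected on these genes, which narrows their range and by itself lowers the coefficient. The coefficients describe cells of 1 library that differ in depth, and gene copies that share stretches of sequence. The score itself had a rho of 0.24 with UMIs per cell over the gate and -0.06 among the defensin-high cells.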

How the data were processed

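Single-cell RNA libraries from dissociated mouse prostate (10x Genomics 3′ chemistry) were deposited as 1 table of 19320 features by 15742 cells, with 0 columns left unused. The authors aligned reads with Cell Ranger 3.1.0 to mm10 with the mGFP and hARtg sequences added, and left out empty droplets, cells high in mitochondrial RNA and multiplets before deposit, so no doublet caller was run. The deposited values are natural log values, ln(1 + 10000 × UMIs of the gene / UMIs of the cell), and 100% of the values above 0 gave whole UMIs within 0.001 once this was undone. The table does not explain the names ARQ and EGFP, which are read here as hARtg (ARQ) and mGFP (EGFP). Total UMIs were 134850345 for barcode ending 1 and 187280119 for ending 2. The labels name 2 samples and do not tie either to an ending.

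UMIs were summed over defensin-high cells (38947320 UMIs) and remaining gated cells (132378001 UMIs) and expressed as CPM. Ratios have exact conditional binomial 95% intervals and shares have exact Clopper-Pearson intervals, which cover counting error only. Log2 ratios were taken after 10 CPM were added to each level, which understates the change of low genes, for genes with at least 20 CPM in either group. A difference was counted at 1.5-fold on that scale. A gene that passed the filter through a single group tends to be counted as higher in that group. With 1 library there is no test across samples. Cells were thinned to 3000 UMIs for shares. Named genes were the genes of the rule, Kcnmb2, Gja1, the transgenes, alpha-defensins with at least 20 UMIs, the 15 highest and 15 lowest ratios with the same sign in all 3 tertiles by depth, up to 4 genes with the largest ratios in each list, and the genes of crossing classes. Further list members, Golga7b, the alpha-defensins under Gm names and the epidermal differentiation complex were taken up after their values were seen. The members and lists were chosen with earlier results of these data known. The ratio and call steps were tested on simulated data. Promoter windows came from RefSeq (GRCm38.p6) and transcripts from GENCODE M1, compared with edlib 1.3.9.post1. Python 3.11.15, numpy 2.4.6, scipy 1.17.1, pandas 2.3.3 and matplotlib 3.10.9 were used. The 19 alternatives, of which 3 were chosen after seeing the data, changed the score limit, depth, gate, scaling, filter, score genes or cells compared. 1 gene covered by the rule is not reported here.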

Additional observations from a re-analysis of the deposited data

How the results depend on the processing

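Over the alternatives, the 62 named genes past 1.5-fold kept their direction in 1054 of 1054 values and were still past 1.5-fold in 1008. The genes named for the highest and lowest ratios had been required to keep the same sign in every tertile by depth. These tertiles are among the alternatives, so for those genes the direction there was fixed by the choice. Many of the named genes were also picked for large ratios in this comparison, so the count is a description only. With no filter on low levels, the median log2 ratio was 0.15 for the alpha-defensins listed by Defa names (0.97 with the filter) and -0.16 for the Paneth cell genes (-0.38 with it), since genes near 0 then enter. Without the lowest quintile by score, an alternative chosen after seeing the data, 89 genes were lower in place of 139. The count of higher genes ranged from 70 to 117 and that of lower genes from 89 to 202. Thinned to 6000 UMIs, a score-gene UMI was found in 99.9% of the defensin-high cells and 63.5% of the remaining cells. The median log2 ratio of the prostate secretory genes ranged from -2.32 to -1.17, and that of the Wnt targets from -0.11 to 0.04. With a score from cells thinned to 5000 UMIs, 85.2% of the cells chosen were defensin-high cells. No paired analysis was possible because each barcode ending is 1 library and no result comes from a test across samples. Depth limits the low genes in single cells, and no replicate shows how the shares vary between mice.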
